A study of Mus musculus with 10 samples.

Results

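The genes described here encode the protein components of the cytosolic and the mitochondrial ribosome in mouse colon. They were chosen from the deposited gene table by 3 conditions: the KEGG ribosome pathway, ko03010, in the table's pathway column, a symbol beginning with Rpl, Rps, Mrpl or Mrps, and a total of at least 100 counts over 10 mice. Of the 56691 genes in the table, 2335 carried ko03010 and 445 of those had such a symbol. The count minimum kept 201 and left out 244. The members were thus selected on measured values, and their levels are given as a description.

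The 201 members fell into 3 classes by symbol. The cytosolic class held 86 genes, 50 of the large subunit (Rpl) and 36 of the small subunit (Rps). A further 72 cytosolic symbols ended in "-ps" and a number, the form used for pseudogenes, and are given apart throughout. The mitochondrial class held 43 genes, 28 of the large subunit (Mrpl) and 15 of the small subunit (Mrps). The biotypes of GENCODE release M21 did not match the symbols everywhere: 5 of the 86 were annotated there as pseudogenes (Rps3a2, Rps3a3, Rps4l, Rpl37rt and Rpl6l), and 5 of the 72 were annotated as protein coding. Just inside the count minimum were Rpl19-ps1 with 101 counts and Rpl27-ps3 with 114, and among those just outside was Rpl3-ps2 with 95. In the mitochondrial class the lowest members were Mrps11 with 1990 counts and Mrpl22 with 2159, and the highest candidates left out were Mrpl27-ps with 78 and Mrpl23-ps1 with 39.

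The samples were 10 colons, each sequenced as bulk poly(A) RNA, from male C57BL/6 mice of 8 weeks. All 10 mice drank 3% dextran sulfate sodium (DSS), an agent that injures the colon lining, for 7 days. The DSS group of 5 mice received that alone, and the ceAF group of 5 mice also received chick early amniotic fluid by gavage at 15 mL/kg for 10 days. The series holds no samples of the paper's control mice or mice given mesalazine, so neither group can be compared with uninjured colon. Total counts ran from 14676471 in ceAF-1 to 19901549 in DSS-2. The question put to the genes was how the cytosolic and the mitochondrial class vary over the 10 mice and between the groups.

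A ribosome is built from RNA and a fixed set of proteins, and cells make the cytosolic set in step, largely through messages that begin with a run of pyrimidines and are translated under the control of growth signals. Mitochondria keep a ribosome of their own, whose proteins are encoded in the nucleus, made in the cytosol and imported. The intestinal lining renews itself continually, and its dividing cells carry a high load of ribosomes.

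Levels between genes were compared in FPKM, which corrects for length. The cytosolic class had a median of 135 FPKM per gene, the mitochondrial class 11.5 and the pseudogene symbols 4.37. In the cytosolic class 55 of 86 genes reached 100 FPKM, and in the mitochondrial class 22 of 43 reached 10 FPKM. The ranges met: of 81 cytosolic genes annotated as protein coding, 11 lay below Mrpl12, the highest mitochondrial gene at 51.9 FPKM. The lowest of those 81 were Rps10 at 18.6 FPKM and Rps27rt at 24.9 FPKM, and 14 mitochondrial genes lay above Rps10. The place of Rps10 may rest on how reads were split, since its pseudogene members held 59.9% of the family's counts.

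**Figure D1:**
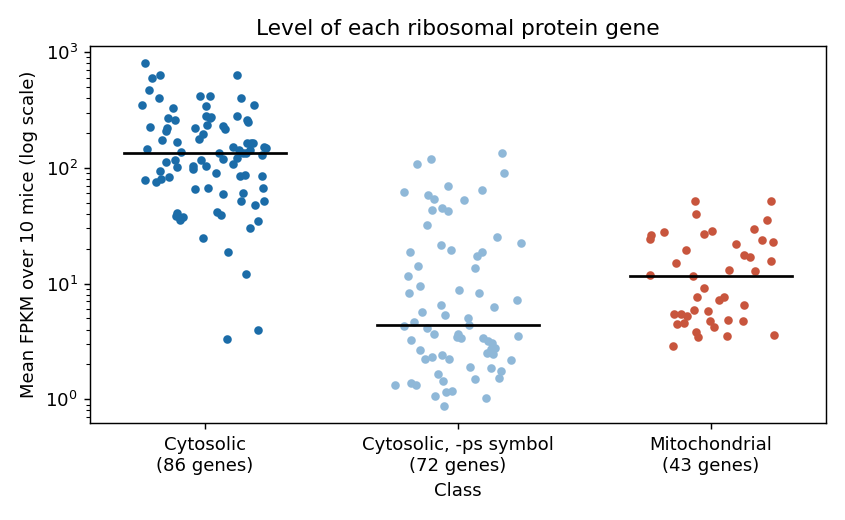
Mean FPKM over 10 mice on a log scale, 1 point per gene, for the 86 cytosolic genes, the 72 cytosolic genes with a pseudogene symbol and the 43 mitochondrial genes. Horizontal lines are the class medians, 135, 4.37 and 11.5 FPKM.

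The most abundant cytosolic genes per length were Rps3a1, a small subunit protein, at 802 FPKM, the stalk genes Rplp1 at 639 FPKM and Rplp0 at 636 FPKM, the small subunit gene Rps15 at 599 FPKM and the large subunit gene Rpl41, which encodes a very short peptide, at 467 FPKM. The lowest were Rps3a2 at 3.33 FPKM, Rps3a3 at 3.95 FPKM and Rps4l at 12.1 FPKM, all annotated as pseudogenes. In the mitochondrial class the highest were the large subunit gene Mrpl12 at 51.9 FPKM, the small subunit gene Mrps21 at 51.2 FPKM, and the large subunit genes Mrpl24 at 39.9 FPKM, Mrpl18 at 35.2 FPKM and Mrpl10 at 29.4 FPKM. The lowest were the large subunit genes Mrpl19 at 2.87 FPKM, Mrpl17 at 3.47 FPKM and Mrpl13 at 3.52 FPKM.

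Some ribosomal proteins have a paralog from another gene. Rpl22 had a mean of 51.5 FPKM and its paralog Rpl22l1 35.3 FPKM. Rpl36a had 75.6 FPKM and Rpl36al 38.9 FPKM, and Rps27 had 133 FPKM and Rps27l 80.1 FPKM. In these 3 pairs both genes were expressed at levels of the same order. Rps4x had 351 FPKM against 12.1 FPKM for Rps4l, and Rpl7 had 261 FPKM against 15.9 FPKM for Rpl7l1, which does not carry ko03010. Rpl3l had 31 counts over the 10 mice, Rpl39l 3 and Rpl10l 0, beside 149 FPKM for Rpl3, 66.7 FPKM for Rpl39 and 278 FPKM for Rpl10. The 3 forms of mitochondrial S18 were Mrps18a at 6.48 FPKM, Mrps18b, outside ko03010, at 7.25 FPKM and Mrps18c at 26 FPKM.

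Reads from near-identical copies can be split between a gene and its pseudogenes, so single values of such families are uncertain. There were 39 cytosolic genes with a pseudogene member of the same stem. The pseudogene symbols held 2.74% of the cytosolic counts and a median of 2.2% of a family's counts. The share was 28.4% for Rpl21, 23.8% for Rpl14, 23.5% for Rps7 and 17.8% for Rpl17. In 1 family the pseudogenes held more than the gene: Rps10 had 7212 counts and its 2 pseudogene members 10781.

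The class was then followed mouse by mouse. Each gene's log2 CPM, the count scaled to library size with edgeR's TMM factors, was taken relative to its own mean over the 10 mice and averaged over the class. The cytosolic score in DSS-1 to DSS-5 was 0.13, 0.03, 0.07, 0.15 and 0.00, and in ceAF-1 to ceAF-5 it was 0.07, −0.03, −0.19, −0.25 and 0.03. The lowest mice were ceAF-3 and ceAF-4, and the other 3 ceAF mice lay within or next to the range of the DSS mice. The group means were 0.07 (SD 0.06, n = 5) for DSS and −0.07 (SD 0.14, n = 5) for ceAF, and the groups overlapped. In ceAF-3, 86 of the 86 cytosolic genes were below their own mean, and in ceAF-4, 85. The numbers were 13, 27, 19, 11 and 42 in DSS-1 to DSS-5 and 26, 47 and 28 in ceAF-1, ceAF-2 and ceAF-5.

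Summed over the 86 genes, normalized CPM was 27278, 25648, 26195, 27179 and 25633 in the DSS mice and 25613, 25187, 22552, 21702 and 26143 in the ceAF mice. The lowest were again ceAF-3 and ceAF-4. By smaller margins ceAF-1 and ceAF-2 were also below every DSS mouse, so 4 of the 5 ceAF mice were, and ceAF-5 was not. In summed FPKM the same 4 mice, at 13988, 14909, 13033 and 13489, were below the lowest DSS mouse, at 15563, and ceAF-5 had 16576. As a share of all counts, before any scaling, the class held 2.83%, 2.58%, 2.69%, 2.59% and 2.6% in the DSS mice and 2.29%, 2.49%, 2.19%, 2.27% and 2.78% in the ceAF mice. This share and FPKM both use total counts without TMM factors, so they are not separate evidence. Here ceAF-1 to ceAF-4 were below every DSS mouse, and ceAF-5 was next to the highest mouse, DSS-1. In bulk tissue, fewer cells rich in ribosomes and less of these RNAs per cell cannot be told apart.

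The mitochondrial score was −0.09, 0.01, −0.03, 0.17 and 0.06 in DSS-1 to DSS-5 and 0.10, 0.04, −0.10, −0.23 and 0.07 in ceAF-1 to ceAF-5. The lowest mice were again ceAF-4 and ceAF-3, but DSS-1, which was high in the cytosolic class, was next to them. Group means were 0.02 (SD 0.10, n = 5) for DSS and −0.02 (SD 0.14, n = 5) for ceAF. Summed CPM was 1277, 1350, 1328, 1513 and 1394 in the DSS mice and 1468, 1380, 1259, 1149 and 1392 in the ceAF mice, so the groups overlapped over most of their range on this scale. In summed FPKM the overlap was smaller: ceAF-1 to ceAF-4 had 637, 645, 579 and 566, below the lowest DSS mouse at 655, and ceAF-5 had 714, within the DSS range.

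**Figure D2:**
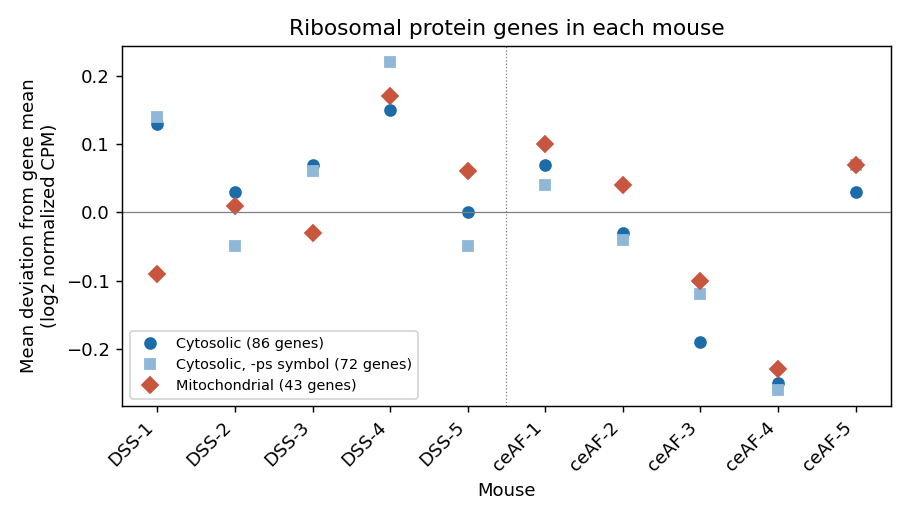
Mean deviation of each class from its genes' own means, in log2 normalized CPM, for each of the 10 mice. The lowest cytosolic points are ceAF-4 at −0.25 and ceAF-3 at −0.19.

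The difference between the cytosolic and the mitochondrial score was 0.21, 0.02, 0.10, −0.03 and −0.05 in the DSS mice and −0.03, −0.06, −0.10, −0.03 and −0.03 in the ceAF mice. DSS-1 and DSS-3 stood above the rest, and DSS-4 and DSS-5 lay among the ceAF mice. The ratio of summed FPKM, cytosolic over mitochondrial, was 26.1, 23.8, 24.4, 22.1 and 22.7 in the DSS mice and 21.9, 23.1, 22.5, 23.8 and 23.2 in the ceAF mice.

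Over the 10 mice the scores of both classes had a Pearson r of 0.73 and a Spearman rho of 0.53. This rested on ceAF-3 and ceAF-4: without them r was 0.09 and rho 0.07 (n = 8). All such correlations are descriptions, since both scores of a point come from 1 library. Within the cytosolic class the large and the small subunit had r 0.99 and rho 0.99, and within the mitochondrial class r 0.91 and rho 0.83 (n = 10 each). The cytosolic genes and the pseudogene symbols had r 0.94 and rho 0.93 (n = 10), and these can share reads as well as libraries.

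Pairs of single genes had a median r of 0.65 in the cytosolic class, with 91.3% of pairs above 0, and of 0.38 in the mitochondrial class (n = 10 mice). Pairs of a cytosolic and a mitochondrial gene had a median r of 0.39, pseudogene symbols among themselves 0.19, and pairs from every 10th gene tested 0.00. Against the score of the rest of its class, a cytosolic gene had a median r of 0.86, and 55 of 86 were above 0.8. The exceptions below 0 were the large subunit genes Rpl15, at −0.13, Rpl10, at −0.11, Rpl3 and Rpl4, the last named after its value was seen. A mitochondrial gene had a median r of 0.60, and 5 of 43 were above 0.8. None of the 43 was below 0, from Mrpl19 at 0.09 to Mrpl13 at 0.89.

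The spread over mice was small in both classes. The coefficient of variation of normalized CPM had a median of 0.10 for cytosolic and 0.12 for mitochondrial genes, 0.22 for pseudogene symbols and 0.23 for all genes tested. The most variable cytosolic genes were Rps4l at 0.29, the stalk gene Rplp2 at 0.25 and Rpl37rt at 0.19, while Rpl24, Rpl37a, Rplp1 and the small subunit gene Rps29 also rounded to 0.19. The most variable mitochondrial genes were the small subunit gene Mrps6 at 0.24, the large subunit gene Mrpl27 at 0.21 and the small subunit gene Mrps12 at 0.19.

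Each of 16545 genes was tested between the groups with edgeR's quasi-likelihood test, and all 201 members were among them. At an adjusted p under 0.05 the test called 0 genes, 0% of those tested, and so 0 members. The smallest adjusted p of any gene was 0.656. At an unadjusted p under 0.05 it passed 1146 genes, 6.93%, of which 607 were lower with ceAF, 3.67%, and 539 higher, 3.26%. DESeq2 called 26 of 21706 genes at an adjusted p under 0.05, 0.12%, and 0 of them were members. Leaving out ceAF-1 gave 1872 genes at an unadjusted p under 0.05, leaving out DSS-1 gave 712, and leaving out DSS-5 gave 3 genes at an adjusted p under 0.05. The mouse ceAF-1 stood apart on the first axis of a principal component analysis, which held 30.8% of the variance. It lay at 93.5 there, and the other mice between −45.5 and 16.

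Of the 86 cytosolic genes, 78 had a negative log2 fold change of ceAF over DSS and 8 a positive one. The median was −0.14, with quartiles of −0.22 and −0.06 and a range from −0.38 to 0.10, beside a median of 0.01 over all genes tested. Without ceAF-4 the cytosolic median was −0.08. Genes that share 10 libraries are not independent. The small subunit had a median of −0.18 and the large subunit −0.12. The 43 mitochondrial genes had a median of −0.04, with 26 negative and 17 positive and a range from −0.36 to 0.21. Their median was 0.02 without DSS-4 and 0.03 without ceAF-4. The 72 pseudogene symbols had a median of −0.13, or −0.06 without ceAF-4, with a wider range from −0.78 to 0.63.

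At an unadjusted p under 0.05, 10 cytosolic genes were lower with ceAF, 11.6% beside 3.67% of all genes, and 0 were higher. That count hung on single mice. It was 27 without ceAF-1, 31.4% beside 5.94% of all genes in that fit. It was 2, or 2.33%, without DSS-1, DSS-4, ceAF-3 or ceAF-4, beside 1.92%, 3.35%, 2.92% and 3.14% of all genes, so without any of the last 3 the class share was below that of all genes. It was 3 without ceAF-2, 3.49% beside 3.22%, and 4 without DSS-3, 4.65% beside 3.02%. The count was 8 without DSS-2, 9.3% beside 3.51%, and 12 without DSS-5, 14% beside 4.54%. Without ceAF-5 the count was 13, 15.1% beside 3.17%. In the mitochondrial class 2 of 43 were lower, 4.65% beside 3.67% of all genes, and 0 were higher, beside 3.26%. The 2 became 4 without ceAF-1, beside 5.94% of all genes lower in that fit. The lower count was 1 without DSS-2, DSS-5 or ceAF-3, beside 3.51%, 4.54% and 2.92%. It was 0 without DSS-4 or ceAF-4, beside 3.35% and 3.14%. The higher count became 1 without ceAF-4, beside 2.49% of all genes higher.

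**Figure D3:**
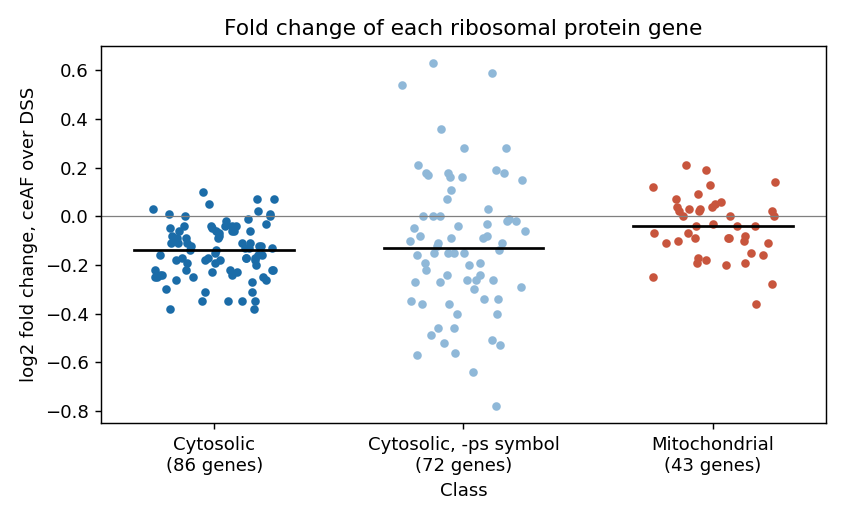
Log2 fold change of ceAF over DSS from edgeR, 1 point per gene, for the 3 classes. Horizontal lines are the medians, −0.14 for cytosolic genes, −0.13 for pseudogene symbols and −0.04 for mitochondrial genes, and no gene passed an adjusted p of 0.05.

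Whether the groups overlapped depended on the scale. A gene's length is the same in every mouse, so within a gene the scales differ in how libraries are scaled. FPKM used total counts, and normalized CPM also the TMM factors, from 0.894 in ceAF-1 to 1.066 in ceAF-5. In normalized CPM, every ceAF mouse was below every DSS mouse for 3 cytosolic genes, Rplp0, Rps15 and Rps4x, and for 0 mitochondrial genes, beside 0.465% of all genes. In the deposited FPKM this held for 4 cytosolic genes, Rplp1, Rps27, Rpl41 and Rpl18, and for the mitochondrial genes Mrpl12 and Mrps12, beside 0.882% of all genes. Among pseudogene symbols it held for 0 in CPM and for Rpl36a-ps2 in FPKM. No member was in both sets. The reverse, every ceAF mouse higher, held for 0 cytosolic and 0 mitochondrial genes on either scale, beside 0.774% of all genes in CPM and 0.326% in FPKM. Rpl18 and Rpl36a-ps2 were named after their values were seen.

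The stalk of the large subunit, which recruits the elongation factors, is built from the products of Rplp0, Rplp1 and Rplp2. Rplp1 had 373, 329, 372, 419 and 316 normalized CPM in DSS-1 to DSS-5 and 340, 296, 248, 231 and 275 in ceAF-1 to ceAF-5. The lowest were ceAF-4 and ceAF-3, and ceAF-1 lay within the DSS range. The log2 fold change was −0.38 (SE 0.128), with an adjusted p of 0.656 by edgeR's quasi-likelihood test.

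Rplp2 had 226, 175, 209, 254 and 146 normalized CPM in the DSS mice and 217, 156, 126, 124 and 154 in the ceAF mice. DSS-5 lay below 3 of the ceAF mice, so the groups overlapped widely, and the log2 fold change was −0.38 (SE 0.187). Rplp0, which anchors the stalk, had 1099, 1086, 1061, 1083 and 1258 in the DSS mice and 991, 1038, 991, 936 and 1015 in the ceAF mice. All 5 ceAF mice were below all 5 DSS mice on this scale, by a small margin. The log2 fold change was −0.17 (SE 0.0997). In FPKM the order did not hold, with 621 in DSS-4 and 651 in ceAF-5.

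Among other large subunit genes, Rpl37a had 244, 193, 216, 237 and 179 normalized CPM in the DSS mice and 216, 165, 154, 138 and 165 in the ceAF mice. Rpl24 had 122, 105, 114, 131 and 94.5 in the DSS mice and 113, 88.9, 73.6, 74.9 and 94.3 in the ceAF mice. In both genes ceAF-1 lay among the DSS mice and ceAF-3 and ceAF-4 were lowest. Both had a log2 fold change of −0.35, with SE 0.137 for Rpl37a and 0.138 for Rpl24.

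The highest positive fold changes of the cytosolic class were small. Rpl15, which is needed early in the assembly of the large subunit, had 242, 250, 247, 243 and 255 normalized CPM in the DSS mice and 250, 263, 255, 252 and 305 in the ceAF mice. The ceAF mice other than ceAF-5 differed little from the DSS mice, and the log2 fold change was 0.10 (SE 0.0864). The large subunit genes Rpl7a and Rpl3 both had 0.07, with SE 0.0935 and 0.106. Rpl22 and Rpl22l1 had −0.11 (SE 0.0914) and −0.14 (SE 0.167). With 1 mouse left out, Rpl15 ran from 0.05 to 0.13, Rpl7a from 0.04 to 0.11 and Rpl3 from 0.00 to 0.12. Likewise Rpl22 ran from −0.14 to −0.06 and Rpl22l1 from −0.23 to −0.04.

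In the small subunit, Rps21 had 107, 89, 101, 113 and 80.2 normalized CPM in the DSS mice and 89.3, 82.1, 68.9, 65.6 and 78.6 in the ceAF mice. DSS-5 was below ceAF-1 and ceAF-2, so the groups overlapped. The log2 fold change was −0.35 (SE 0.122), with an adjusted p of 0.656 by edgeR's quasi-likelihood test.

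Rps15 had 442, 381, 405, 427 and 389 normalized CPM in the DSS mice and 376, 360, 327, 296 and 375 in the ceAF mice. The groups did not overlap, but DSS-2 and ceAF-1 were close, and the log2 fold change was −0.24 (SE 0.101). In FPKM ceAF-5, at 633, was above DSS-2, at 608. Rps3a1 had 899, 818, 848, 912 and 733 normalized CPM in the DSS mice and 737, 724, 663, 644 and 854 in the ceAF mice. Here ceAF-5 was among the DSS mice and DSS-5 among the ceAF mice, and the log2 fold change was −0.22 (SE 0.115). The small subunit genes Rps27 and Rps13 and the large subunit gene Rpl36a had −0.31 (SE 0.126), −0.27 (SE 0.109) and −0.30 (SE 0.123).

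Some members have a role beyond the ribosome's structure. Rps6, whose product is phosphorylated when growth signals are active, had a log2 fold change of −0.17 (SE 0.102), and phosphorylation was not measured. Rpsa, also known as a laminin receptor, had −0.16, and Rps27a, which encodes ubiquitin fused to a ribosomal protein, had −0.22 (SE 0.115).

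In the mitochondrial class, Mrps12, of the small subunit, had 13.2, 15.3, 12.8, 19.4 and 14.9 normalized CPM in the DSS mice and 12.4, 12.9, 11.5, 10.7 and 11.3 in the ceAF mice. Only ceAF-2 reached into the DSS range, and DSS-4 was well above the rest. The log2 fold change was −0.36 (SE 0.137), with an adjusted p of 0.656 by edgeR's quasi-likelihood test. Mrpl12, of the large subunit, had 82.6, 82.4, 80.3, 102 and 89.7 in the DSS mice and 85.5, 80.8, 64.7, 60.3 and 69 in the ceAF mice. The groups overlapped through ceAF-1 and ceAF-2, and the log2 fold change was −0.28 (SE 0.119).

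Mrps2, of the small subunit, had 24, 26.2, 22.6, 26.1 and 25 normalized CPM in the DSS mice and 26.2, 28.2, 26.2, 26.5 and 34 in the ceAF mice. The ceAF mice began where the DSS mice ended and ceAF-5 was highest, with a log2 fold change of 0.19 (SE 0.102). That value ran from 0.11 to 0.22 with 1 mouse left out. The large subunit gene Mrpl32 had 0.21 (SE 0.139) and the small subunit gene Mrps10 0.14 (SE 0.0968). The large subunit gene Mrpl28 had −0.25 (SE 0.124). The 35 Mrpl and Mrps genes outside ko03010 had a median of −0.02. At an unadjusted p under 0.05, 0 of them were lower and 2 were higher, 5.71% beside 3.26% of all genes. These were Mrps22 with a log2 fold change of 0.39 (SE 0.139) and Mrpl39 with 0.20 (SE 0.0912), both named after their values were seen. The score of the 35 genes followed that of the mitochondrial class with r 0.95 and rho 0.95 (n = 10).

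Among pseudogene symbols, 2 of 72 were lower at an unadjusted p under 0.05, 2.78% beside 3.67%, and 2 were higher, 2.78% beside 3.26%. The lower ones were Rpl38-ps2, at −0.46 (SE 0.184), and Rpl9-ps4, at −0.40 (SE 0.164), named after their values were seen. The higher ones were Rpl31-ps13, at 0.63 (SE 0.268), and Rpl7a-ps3, at 0.59 (SE 0.217). The lower count was 5 without ceAF-1 and 4 without DSS-5, beside 5.94% and 4.54% of all genes lower in those fits. It was 1 without each of DSS-1, DSS-3 and ceAF-3, beside 1.92%, 3.02% and 2.92%. Without DSS-4 or ceAF-4 it was 0, beside 3.35% and 3.14%. The higher count was 0 without ceAF-5, beside 2.59% of all genes higher. It was 1 without any of DSS-1, DSS-3, DSS-4, ceAF-2, ceAF-3 and ceAF-4, beside 2.33% to 3.84%.

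Length moved with the fold change in the mitochondrial class. Across the 43 genes, exonic length and log2 fold change had a Spearman rho of 0.54, beside 0.19 across the 86 cytosolic genes and 0.09 across all genes tested, and the genes of a class are not independent. The part of length in the results was not tested. The score of 990 short genes that are not ribosomal protein genes was 0.12, 0.08, 0.08, 0.11 and −0.18 in the DSS mice and −0.28, 0.02, 0.05, −0.06 and 0.07 in the ceAF mice. The lowest were ceAF-1 and DSS-5, not ceAF-3 and ceAF-4, and its r with the cytosolic score was 0.17, with rho 0.60 (n = 10). The share of counts on 37 mitochondrially encoded genes was 5.34%, 5.34%, 5.45%, 6.54% and 5.06% in the DSS mice and 9.66%, 5.64%, 4.53%, 7.24% and 9.74% in the ceAF mice. Its r with the cytosolic score was 0.13 and rho 0.21 (n = 10). The nuclear RNA Malat1 had 330, 263, 251, 238 and 335 normalized CPM in the DSS mice and 279, 324, 357, 314 and 328 in the ceAF mice, with ceAF-3 highest. Its r with the cytosolic score was −0.53 and rho −0.49 (n = 10), and r was −0.48 and rho −0.45 without ceAF-3 and ceAF-4 (n = 8). Another nuclear RNA, Neat1, had 2183, 1936, 2424, 2242 and 3520 normalized CPM in the DSS mice and 2217, 2365, 1832, 2374 and 2972 in the ceAF mice, with ceAF-3 lowest, and an r of 0.14 and rho of −0.03 with the cytosolic score (n = 10). The part of these RNAs in the result was not tested.

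Other genes of translation were read from 4 lists. The first list held 21 elongation factors and other genes listed as having a pyrimidine start, which was not checked here for these genes. Their median log2 fold change was 0.00, with −0.04 to 0.02 when 1 mouse was left out. Their score had r 0.54 and rho 0.33 with the cytosolic score and r 0.57 and rho 0.67 with the mitochondrial score (n = 10). At an unadjusted p under 0.05, beside 3.26% of all genes higher and 3.67% lower, 2 were higher, the poly(A) binding protein gene Pabpc1 at 0.31 and the RNA binding protein gene Hnrnpa1 at 0.35, and 1 was lower, the elongation factor gene Eef1b2 at −0.23, named after its value was seen. The most abundant, the elongation factor gene Eef1a1 at 1736 FPKM, had 0.05. Of 30 ribosome biogenesis genes 26 had a positive value, with a median of 0.12 and none at an unadjusted p under 0.05. That median was 0.23 without DSS-5, 0.21 without ceAF-1 and 0.06 without ceAF-5. Their score had r −0.43 and rho −0.54 with the cytosolic score and r −0.11 and rho 0.04 with the mitochondrial score (n = 10). The most abundant was the nucleolin gene Ncl at 28.3 FPKM, and the assembly genes Nop58 and Nob1 had 0.33 and 0.23.

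Of 30 mitochondrial translation genes 23 had a positive value, with a median of 0.11, which was 0.18 without DSS-5 and 0.07 without DSS-1. At an unadjusted p under 0.05, 3 were higher and 0 lower, beside 3.26% and 3.67% of all genes: the initiation factor gene Mtif2 at 0.28, the assembly factor gene Malsu1 at 0.35 and the small subunit associated gene Ptcd3 at 0.35, the last named after its value was seen. The most abundant was the elongation factor gene Tufm at 34.1 FPKM. The list's score had r −0.18 and rho −0.38 with the cytosolic score and r 0.32 and rho 0.32 with the mitochondrial score (n = 10). Of 22 genes that control ribosomal protein genes or their translation, the median was 0.08 and none had an unadjusted p under 0.05. It was 0.04 without DSS-1 and 0.15 without DSS-5. The most abundant was Max, a partner of Myc, at 88.7 FPKM, and the growth inhibitors Tsc1 and Tsc2 had 0.19 and 0.18. The summed level of these 22 genes was 1410, 1597, 1467, 1574 and 1758 normalized CPM in the DSS mice and 1687, 1643, 1692, 1544 and 1489 in the ceAF mice. Their score had r −0.64 and rho −0.77 with the cytosolic score (n = 10), and r −0.70 without ceAF-3 and ceAF-4 (n = 8). With the mitochondrial score it had r −0.03 and rho −0.02 (n = 10).

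Markers of cell types were read from further lists. At an unadjusted p under 0.05, 9 of 10 T cell, 7 of 8 neutrophil and 2 of 8 macrophage genes were lower, beside 3.67% of all genes. So were 1 of 9 plasma cell genes and 1 of 12 colon epithelium genes, Tff3 at −0.67. The other lists had 0 lower, and every list had 0 higher, beside 3.26% of all genes. The T cell list, with 10 of 10 genes tested, had a median log2 fold change of −1.23. Its summed level was 123, 123, 120, 132 and 45.2 normalized CPM in the DSS mice and 42.7, 69.2, 53.7, 27.3 and 36.2 in the ceAF mice. DSS-5 lay among the ceAF mice. Its most abundant gene was Trbc2 at 16.7 FPKM, no marker was at 0 in all mice, and the receptor genes Cd3d and Cd3g had −1.52 and −1.47. Its score had r 0.63 and rho 0.64 with the cytosolic score (n = 10), and r 0.52 without ceAF-3 and ceAF-4 (n = 8).

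The enteric glia and neuron list, with 8 of 8 genes tested and a median of −0.23, had a summed level of 62.4, 24.3, 47.1, 23.2 and 32.2 normalized CPM in the DSS mice and 52, 33.5, 19.3, 18.3 and 34.4 in the ceAF mice. Its median was 0.09 without DSS-1, −0.35 without DSS-2, −0.15 without DSS-3, −0.39 without DSS-4, −0.52 without ceAF-1, −0.09 without ceAF-3 and −0.04 without ceAF-4. Its most abundant gene was Uchl1 at 4.97 FPKM and no marker was at 0 in all mice. Its r with the cytosolic score was 0.68 and rho 0.59 (n = 10), and r was 0.11 without ceAF-3 and ceAF-4 (n = 8). The fibroblast list, 10 of 10 genes with a median of −0.19, had 1225, 617, 599, 581 and 608 in the DSS mice and 217, 779, 734, 933 and 544 in the ceAF mice. Its median was −0.02 without DSS-1 or ceAF-1, −0.32 without ceAF-2, −0.29 without ceAF-3 and −0.36 without ceAF-4. Its most abundant gene was Col3a1 at 23.3 FPKM, no marker was at 0 in all mice, and its score had r −0.57 and rho −0.78 with the mitochondrial score (n = 10). With that score the endothelium list had r −0.56 and rho −0.49 and the neutrophil list r −0.46 and rho −0.56 (n = 10). The pancreas acinar list, with 1 gene tested, had r 0.43 and rho 0.55. The remaining cell type lists and the proliferation list had r between −0.26 and 0.28 and rho between −0.32 and 0.26. The part of these cell types in the results was not tested.

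With the cytosolic score, the proliferation list had r −0.47 and rho −0.61, and the other cell type lists, fibroblasts included, had r between −0.20 and 0.31 and rho between −0.39 and 0.43 (n = 10). The colon epithelium list had a median of 0.05 over 12 genes, with the colonocyte gene Car1 most abundant at 2778 FPKM, and the proliferation list 0.28 over 10 genes, all 10 positive. The epithelium median was −0.01 without DSS-5, 0.01 without ceAF-1, 0.10 without DSS-3 or DSS-4, 0.12 without ceAF-5 and 0.15 without ceAF-4. The proliferation median was 0.17 without ceAF-5 and 0.47 without ceAF-1. Smooth muscle had −0.14 over 10 genes. That was −0.34 without ceAF-2, −0.25 without ceAF-5, −0.24 without DSS-4, −0.09 without DSS-2, −0.08 without ceAF-1, −0.05 without DSS-5 or ceAF-4 and −0.01 without ceAF-3. Of 6 pancreas acinar genes 1 was tested, Cela1, at −0.27, which was −0.11 without ceAF-1, −0.17 without DSS-4 or ceAF-4 and −0.46 without ceAF-5.

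The medians of the next lists hung on single mice, DSS-1 in each case among them. The B cell list had a median of −0.60 over 10 genes, which was 0.57 without DSS-1, −0.32 without ceAF-1 or ceAF-4 and −1.14 without ceAF-5. Its summed level was 282 normalized CPM in DSS-1 and 36.7 to 49.4 in the other DSS mice. Neutrophil markers had −3.94 over 8 genes and −1.28 without DSS-1, which had 1752 normalized CPM against 18.7 to 186 in the other DSS mice. Macrophages had −0.54 over 8 genes and −0.33 without DSS-1 or ceAF-1, with 475 normalized CPM in DSS-1 and 166 to 194 in the other DSS mice. Plasma cells had −0.47 over 9 genes, −0.26 without DSS-1, −0.20 without ceAF-1 and −0.30 without ceAF-4. Endothelium had −0.38 over 7 genes, −0.16 without DSS-1, −0.19 without ceAF-1 and −0.58 without ceAF-4.

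The members were spread over the genome. The cytosolic genes lay on 19 chromosomes, with 14 on chromosome 7, and the mitochondrial genes on 16, with 6 on chromosome 17. The X chromosome held 13 members.

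Promoters were read from RefSeq on build GRCm38.p6, as 32851 windows of 250 bases before to 50 bases after a first transcribed base. Windows were found for 62 of 86 cytosolic genes, 39 of 43 mitochondrial genes and 0 of 72 pseudogene symbols. A terminal oligopyrimidine (TOP) start, a C at the first transcribed base followed by at least 4 pyrimidines, was read on the transcribed strand. It was present in 14 of 62 cytosolic genes, 22.6%, 0 of 39 mitochondrial genes, and 3.01% of all 27025 genes with a window, or 2.51% of all windows. The median log2 fold change was −0.19 for the 14 and −0.12 for the other matched cytosolic genes. These counts depend on which base is annotated as the first. A gene without a run at that base was thus not shown to lack a TOP start. Allowing the run to begin within 5 bases of the start gave 30 cytosolic genes, 48.4%, and 9 mitochondrial genes, 23.1%. This was beside 21.2% of all genes and 18.3% of all windows. The median log2 fold change was then −0.16 for the 30 and −0.13 for the other matched cytosolic genes. Mrpl12 is counted only when the run may begin within 5 bases, and its run ends before the first transcribed base. The 30 bases around the start are shown for it and, with the run in capitals, for 5 cytosolic genes, to show what the rule counts. They are Rps21 at chr2:180257364-180257393 on the plus strand, Rplp2 at chr7:141447636-141447665 on the plus strand, Rpl15 at chr14:18270972-18271001 on the minus strand, Rps6 at chr4:86857353-86857382 on the minus strand, Rps27 at chr3:90213634-90213663 on the minus strand and Mrpl12 at chr11:120484622-120484651 on the plus strand.
Rps21: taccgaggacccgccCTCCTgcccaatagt
Rplp2: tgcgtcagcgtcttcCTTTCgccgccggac
Rpl15: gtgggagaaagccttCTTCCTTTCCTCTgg
Rps6: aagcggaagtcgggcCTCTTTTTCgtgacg
Rps27: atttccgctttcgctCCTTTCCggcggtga
Mrpl12: agctcgcctcctcccggatagagcgtcgct

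Short motifs were searched on both strands of the same windows. The ETS letters CCGGAAG were in a window of 25 of 62 cytosolic genes, 40.3%, of 13 of 39 mitochondrial genes, 33.3%, and of 9.93% of all 27025 genes with a window, or 8.86% of all windows. The YY1 letters AAGATGG were found for 9 and 7 genes, beside 7.28% of all genes and 6.34% of all windows, and the NRF1 letters GCATGCGC for 3 and 6, beside 3.05% and 2.71%. The E-box CACGTG was found for 6 and 4, beside 8.09% and 7.15%, and TATAAA for 7 and 2, beside 15.7% and 13.6%. Median log2 fold changes of matched cytosolic genes with and without the letters were −0.11 and −0.17 for ETS and −0.12 and −0.15 for YY1. They were −0.04 and −0.15 for NRF1, −0.17 and −0.14 for the E-box and −0.14 and −0.15 for TATAAA. These differences, and those for TOP starts, were not tested. A match is a description of these letters and not of a bound site. The stretches around the ETS letters, in capitals as they read on the gene's strand, are shown for a pair of genes from each class, since these letters were found in both. They are Rps3a1 at chr3:86142659-86142688, Rpl41 at chr10:128549206-128549235, Mrps12 at chr7:28741802-28741831 and Mrps21 at chr3:95871478-95871507, all on the minus strand.
Rps3a1: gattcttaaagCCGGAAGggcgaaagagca
Rpl41: tagtaaggcagCCGGAAGtcgctgtctcga
Mrps12: aaggaggaaccCCGGAAGgggctggaggta
Mrps21: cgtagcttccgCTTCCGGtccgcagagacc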

How the data were processed

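The deposited table gave a whole-number count and an FPKM value per gene and sample, made by the authors. Their processing notes name cutadapt 1.9.1 and HISAT2 2.2.1; the counting tool and the genome build are not given in the sources used here. In each sample the deposited FPKM had a median ratio of 1 to values recomputed from counts, lengths and the sample's total count.

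Counts were filtered with filterByExpr (minimum count 10), scaled by TMM and tested 2-sided with edgeR 4.0.16 (quasi-likelihood test, Benjamini-Hochberg adjustment over all genes kept) in R 4.3.3. Alternatives used DESeq2 1.42.0 and limma 3.58.1 (log2 of FPKM plus 1 or 0.1, mean FPKM at least 1), other scalings and filters, a replicate block and each mouse left out. Log2 CPM used a prior count of 1. Python 3.11.15, pandas 2.3.3 and matplotlib 3.10.9 made the remaining values. That replicates are separate mice rests on the labels. The edgeR step was tested on simulated data with changes larger than that of any member. Whether it finds changes of the members' size was not tested.

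The members and lists were chosen with earlier results of these data known. Genes were named by level, smallest p, fold change, variation, count threshold, paralogy or role; any others were named after their values were seen. Another candidate, just below the count minimum, is not reported here. Levels per mouse were planned in FPKM. After the FPKM values had been seen, normalized CPM, the scale of the test, was printed in place of FPKM for comparisons between the groups, and the overlap counts and outlying mice are given on both scales. Adding pseudogene counts to the gene of the same stem, and TOP runs within 5 bases, were also added after the data were seen.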

Additional observations from a re-analysis of the deposited data

Results flagged for a closer look

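A mouse far from the other 4 of its group was looked for with Dixon's ratio, the gap to the nearest mouse over the whole range, against a critical value of 0.71 for 5 mice. The class scores gave 0 of 6 groups past it. For the named members, FPKM, the planned scale, gave 6 of 120 groups. Normalized CPM, added after the FPKM result had been seen, gave 8 of 120, and only 2 groups were past the value on both scales. Chance flags about 1 in 20 groups.

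In FPKM, ceAF-5 was the highest ceAF mouse for Mrpl22, at 17.3 against 10.9 to 12.6 (ratio 0.741), for Rpl7a, at 295 against 225 to 244 (ratio 0.732), and for Rps3a1, at 929 against 658 to 731 (ratio 0.729). DSS-4 was lowest for Rpl15, at 93.5 against 102 to 104 (ratio 0.728). DSS-5 was lowest for Rpl22l1, at 26.5 against 39 to 41.9 (ratio 0.814). ceAF-1 was lowest for Rpl27-ps3, at 0.5 against 1.42 to 1.68 (ratio 0.78).

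In normalized CPM, ceAF-5 was highest for Mrpl22, at 16 against 11.7 to 12.5 (ratio 0.813), for Mrps2, at 34 against 26.2 to 28.2 (ratio 0.741), and for Rpl15, at 305 against 250 to 263 (ratio 0.752). ceAF-1 was highest for Mrpl24, at 113 against 85.8 to 90.4 (ratio 0.834), and for Rpl37rt, at 38.9 against 21.6 to 26.2 (ratio 0.734). DSS-5 was highest for Rpl10, at 716 against 527 to 577 (ratio 0.733), and for Rplp0, at 1258 against 1061 to 1099 (ratio 0.808), and lowest for Rpl22l1, at 52 against 77.5 to 81.6 (ratio 0.862).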

How the results depend on the processing

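The number of genes at an adjusted p under 0.05 was 0 with edgeR, 26 with DESeq2 and 1 with limma at either pseudocount, and 0 to 3 with 1 mouse left out. At an unadjusted p under 0.05 it was 1146, 1733 with no filter on low counts, and 712 to 1872 with 1 mouse left out. No member passed an adjusted p of 0.05 in any of these fits.

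Cytosolic genes lower at an unadjusted p under 0.05 numbered 10, with 19 by DESeq2, 22 by limma at either pseudocount, and 2 to 27 with 1 mouse left out. These are 11.6% of 86 genes by edgeR, 22.1% by DESeq2 and 25.6% by limma. Of all genes given a p, 3.67% of 16545 were lower at that p by edgeR, 2.75% of 32419 by DESeq2, and 4.48% and 4.51% of 13345 by limma at pseudocounts of 1 and 0.1. For pseudogene symbols the lower count was 2 by edgeR, 2.78% beside 3.67% of all genes. It was 8 and 9 by limma at pseudocounts of 1 and 0.1, beside 4.48% and 4.51%. With 1 mouse left out it was 0 to 5, beside 1.92% to 5.94%. The higher count was 2, or 2.78% beside 3.26% of all genes. It was 1 for no filter, beside 2.33%, and 0 for at least 50 counts in 5 samples, beside 3.22%. By limma it was 1 at either pseudocount, beside 1.98% and 1.93%. With 1 mouse left out it was 0 to 3, beside 2.33% to 5.21%. For mitochondrial genes the lower count was 2, 4.65% beside 3.67% of all genes. With 1 mouse left out it was 0 to 4, beside 1.92% to 5.94%. Their higher count was 0, beside 3.26%, and 0 to 1 with 1 mouse left out, beside 2.33% to 5.21%. The cause was not tested.

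The median log2 fold change stayed negative in all fits run for the cytosolic class, from −0.18 to −0.08, and for pseudogene symbols, from −0.18 to −0.06. The mitochondrial median ran from −0.09 to 0.03 and was positive without DSS-4, at 0.02, and without ceAF-4, at 0.03. Of 60 named members 48 had the same sign in all other fits run for them and 12 changed sign in at least 1. TOP runs within 5 bases of the start gave 30 cytosolic and 9 mitochondrial genes, against 14 and 0.

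With the replicate block, genes at an unadjusted p under 0.05 numbered 694, with 6 cytosolic genes lower, 6.98% beside 2.06% of all genes, 0 pseudogene symbols lower, 0 higher and 0 mitochondrial genes lower. Mice share only a number: deviations of same-numbered mice had r of −0.25, −0.14, 0, −0.16 and 0.29, and the best partner was the same number for 1 of 5.

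With 5 mice per group, no member passed the test adjusted over all genes. The cytosolic score had an SD of 0.06 over DSS mice and 0.14 over ceAF mice. The counts at an unadjusted p are not calls. Cell composition was not measured apart from marker RNA.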
